A study of Mus musculus with 14 samples.

Results

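The Sprouty, Spred and dual-specificity phosphatase genes described here are the feedback inhibitors of the MAPK/ERK pathway. The 10 genes were taken as listed by name, with earlier results of these data known: Spry1, Spry2, Spry4, Spred1, Spred2, Dusp4, Dusp5, Dusp6, Dusp7 and Il17rd. All 10 were found among the 55335 genes of the ureteric bud (UB) count table and among the 52636 genes of the metanephric mesenchyme (MM) count table, and all 10 passed the filter on low counts in each tissue. RNA-Seq was made from embryonic mouse kidney cells sorted by GFP, 1 library from both kidneys of an embryo. UB cells were taken at E12.5 with HoxB7Cre-GFP, which acts in the UB epithelium, in 4 control (ctrl) and 4 dko libraries. MM cells were taken at E13.5 with Six2-TGC, which acts in nephron progenitors, in 3 ctrl and 3 dko libraries. The dko embryos were Mek1fl/fl;Mek2-/-, so that Mek1 was lost only where Cre acts and Mek2 in every cell of the embryo. The controls carried the same Cre and were Mek1fl/+. UB controls 1, 3 and 4 were Mek2+/-, UB control 2 was Mek2+/+ and the MM controls were Mek2+/+. All mice were on a mixed C57BL6/Rcc and 129/SvEv background. For each of the 10 genes, UB control 2 lay within the range of the other 3 UB controls.

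MEK1 and MEK2 are the kinases that phosphorylate ERK downstream of receptor tyrosine kinases such as RET and FGFR2. Sprouty and Spred proteins act between the receptor and RAF, IL17RD (Sef) acts on the receptors and on ERK, and the DUSP phosphatases of this group remove phosphate from ERK itself. Transcription of many of these inhibitors is induced by ERK, so that the pathway limits its own output. In the UB, RET signalling drives branching, and Spry1 is known as the inhibitor that keeps it in check.

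Depth and sample quality differed between groups. Totals were 5141500 to 6310510 counts in the UB controls, 4857053 to 7493144 in the UB dko, 5880919 to 6442484 in the MM controls and 1443582 to 3438297 in the MM dko. UB dko library 3, which had the highest total, held 32.5% of its counts in the single gene Gm42418, against 3.26 to 4.65% in the other UB libraries. In the MM, Gm42418 took 5.40 to 8.24% in the controls and 1.42 to 2.56% in the dko. Mitochondrial ribosomal RNA took 1.05 to 1.37% of counts in the UB controls, 1.40 to 7.02% in the UB dko, 1.73 to 2.27% in the MM controls and 11.0002 to 15.9% in the MM dko. Map2k2 (Mek2), counted over the whole gene, stood at 11.4 to 24.7 normalized counts in the MM dko against 211 to 279 in the MM controls. It stood at 199.7 to 400.0 in the UB controls and at 282, 43.6, 302 and 65.8 in UB dko libraries 1 to 4, so that the libraries labelled UB dko 1 and 3 lay in the control range. Results for the UB are therefore also given without those libraries. Map2k1 (Mek1), also counted over the whole gene, was not lower in the dko. It stood at 76.2 to 99.8 in the MM controls and 112 to 165.4 in the MM dko. In the UB it stood at 125.5 to 183.7 in the controls and 170.2 to 236.3 in the dko. These counts do not show the loss of Mek1, which is taken here from the genotype labels. Fold changes of dko over ctrl went down as GC content went up, with a median log2 fold change (log2FC) of 0.49 in the lowest and -0.30 in the highest of 5 GC bins in the UB, and of 1.20 and -1.73 in the MM. The labelled cell types bore their markers: the summed level of 12 UB markers was 20558 to 23264 normalized counts in the UB controls and 19364 to 21286 in the UB dko, and that of 11 nephron progenitor markers was 10166 to 11167 in the MM controls and 8998 to 11231 in the MM dko. In the MM the UB receptor gene Ret was at 0 to 4.08 normalized counts. Replicates are separate embryos, but the sample titles carry a code that UB controls 2 to 4 share, as do UB dko 1 and 2, MM controls 1 and 2, and MM dko 1 and 2. No code is common to ctrl and dko of a tissue. What the code marks is not given, so an effect of whatever it marks cannot be told apart from that of the genotype.

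In the UB, the question was whether the feedback inhibitors were lower after loss of MEK1 and MEK2. Spry1, Spred2, Dusp4, Dusp5 and Dusp6 fell, to between 26.3 and 40.6% of their control means, and none of the 10 rose. Spry2 and Spry4 were lower in every UB dko library than in any control without passing the test, while Spred1, Dusp7 and Il17rd overlapped between groups. The 5 genes that fell compare with 1.24% of 13425 tested genes called lower (edgeR quasi-likelihood test, adjusted p under 0.05 by the Benjamini-Hochberg method) and 2.7% called higher. The 7 genes whose groups did not overlap compare with 7.06% of all genes lower without overlap, and the 0 higher without overlap with 8.19%. The median log2FC of the 10 genes was -1.36, against 0.06 for all genes tested, and each of the 10 values was below 0. At an unadjusted p under 0.05, 7 were lower and 0 higher, against 7.91 and 13% of all genes. DESeq2 likewise called 7 lower and 0 higher, against 3.92 and 6.5% of all genes. Because the genes were chosen with earlier results of these data known, these comparisons describe them and are no independent test. In single libraries, the median over the 10 genes relative to the control mean was -1.06, -1.36, -1.44 and -1.11 on the log2 scale in UB dko libraries 1 to 4, and -0.17 to 0.18 in the controls. In UB dko libraries 1 and 4 all 10 genes lay below every control library, in library 3 this held for 8 and in library 2 for 7. In these bulk samples fewer cells of a type and less RNA per cell cannot be told apart.

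**Figure D1:**
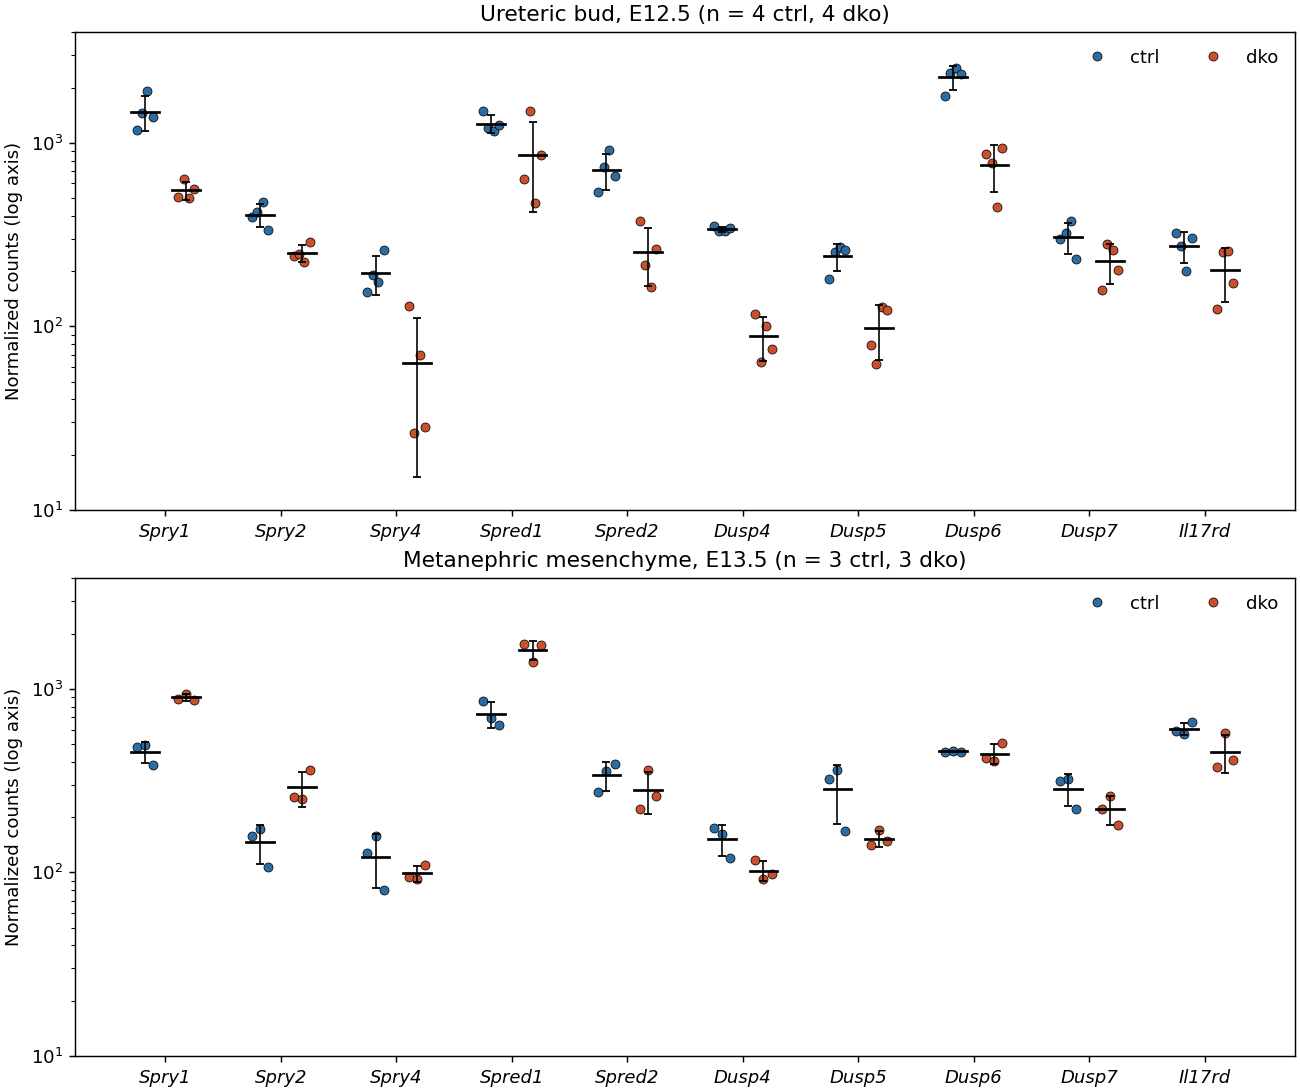
Normalized counts (log axis) of the 10 feedback inhibitors in every library, for the ureteric bud above and the metanephric mesenchyme below, with points for libraries, horizontal lines for group means and bars for the SD. In the UB the dko points of 7 genes sit below all control points, whereas in the MM those of Spry1, Spry2 and Spred1 sit above them.

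Among the Sprouty genes, Spry1 (ENSMUSG00000037211, chromosome 3 from 37639947 to 37644598 of GRCm38, plus strand) had 1171, 1454, 1909 and 1375 normalized counts in the UB controls and 508, 638, 499.8 and 557 in the UB dko. The groups were far apart, and the dko libraries agreed more closely with each other than the controls did. The means were 1477 ± 312 and 551 ± 63.3 (SD, n = 4 each; log2FC -1.42, SE 0.20, adjusted p = 0.00535 by edgeR). Spry1 passed the test in each of 8 fits that left out 1 library, but not with offsets for GC content and length (log2FC -0.85, SE 0.33, adjusted p = 0.144). It shares 710 exonic bases with Gm42922 on the opposite strand, which had 21 counts over the UB libraries against 8469 for Spry1.

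The 250 bases before the start of Spry1, chr3:37639697-37639946 on the plus strand of GRCm38.p6, are shown from the RefSeq promoter table because Spry1 was the gene whose response differed most between the tissues. They were searched on both strands for the ETS motif CCGGAAG, the CRE TGACGTC, the AP-1 motif TGANTCA and the CArG box, each bound by factors that ERK signalling is known to act on, and none of the 4 was found in Spry1. No match of a motif overlapped that of another in the sequences shown. Of 32851 promoters of the same length, 6.91% held the ETS motif, 2.78% the CRE, 6.75% the AP-1 motif and 1.47% the CArG box. Of the 8 inhibitors searched, all but Spry4 and Dusp4, 0 held the ETS motif, 0 the AP-1 motif, 1 the CRE and 1 the CArG box.
Spry1: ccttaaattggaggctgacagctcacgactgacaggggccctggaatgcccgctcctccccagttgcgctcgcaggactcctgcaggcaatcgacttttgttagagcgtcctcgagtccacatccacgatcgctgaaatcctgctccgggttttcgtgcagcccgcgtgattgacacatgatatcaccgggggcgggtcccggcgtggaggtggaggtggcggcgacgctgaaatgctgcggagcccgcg

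Spry2 (ENSMUSG00000022114, chromosome 14 from 105891947 to 105896819, minus strand) was at 394, 421, 473 and 333 normalized counts in the UB controls and at 242, 248, 225 and 289 in the UB dko. All dko values were below all control values, by a smaller margin than for Spry1 (405 ± 58.2 against 251 ± 27.1, SD, n = 4 each; log2FC -0.69, SE 0.20, adjusted p = 0.0761 by edgeR). Spry4 (ENSMUSG00000024427, chromosome 18 from 38586247 to 38601415, minus strand) was at 154, 190, 173 and 261 in the controls and at 129, 26.1, 69.5 and 28.4 in the dko. Its dko libraries were the most scattered of the 10 genes, with libraries 2 and 4 lowest and a coefficient of variation of 76.1% (195 ± 46.8 against 63.2 ± 48.1; log2FC -1.60, SE 0.48, adjusted p = 0.0823 by edgeR). Without UB dko libraries 1 and 3, both passed the test, Spry2 at a log2FC of -0.60 (SE 0.20, adjusted p = 0.0218) and Spry4 at -2.83 (SE 0.35, adjusted p = 6.08e-06).

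Of the Spred genes, whose products bind RAS and RAF and recruit neurofibromin, Spred2 (ENSMUSG00000045671, chromosome 11 from 19924375 to 20024026, plus strand) had 539.6, 734, 909.97 and 661 normalized counts in the UB controls and 374, 216, 163 and 264 in the UB dko. Every dko library was below the lowest control (711 ± 155 against 255 ± 89.7, SD, n = 4 each; log2FC -1.48, SE 0.27, adjusted p = 0.0163 by edgeR). Spred2 lost the call when control 2, 3 or 4 was left out, with adjusted p-values of up to 0.0748 by edgeR. Its log2FC was -1.34 to -1.52 in those fits, which called 0.0506 to 0.0796% of all genes lower, against 1.24% with all libraries. Spred1 (ENSMUSG00000027351, chromosome 2 from 117121374 to 117182279, plus strand) was at 1482, 1205, 1152 and 1251 in the controls and at 634, 1483, 473 and 860.1 in the dko. The groups overlapped because of UB dko library 2, which lay just above the highest control (1273 ± 145 against 862 ± 443; log2FC -0.56, SE 0.30, adjusted p = 0.312 by edgeR). Without library 2 the log2FC was -0.95 (SE 0.22, adjusted p = 0.0406), and after correction with GC and length offsets -1.02 (SE 0.14, adjusted p = 4.99e-04). Of 8 fits that left out 1 library, 1 passed, the fit without library 2. Without UB dko libraries 1 and 3, whose Map2k2 lay in the control range, the log2FC of Spred1 was -0.13 (SE 0.18, adjusted p = 0.604 by edgeR).

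Among the inhibitors searched, Spred2 was the one whose promoter held the CRE, as GACGTCA on the plus strand 53 bases before the RefSeq start. The 30 bases around it, chr11:19924379-19924408 on the plus strand of GRCm38.p6, are shown with the match in capitals, and lie just after the GENCODE start of the gene.
Spred2: ccgctgggaaGACGTCAtcgcttccgccct

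Dusp6 and Dusp7 encode cytoplasmic ERK phosphatases, whereas Dusp4 and Dusp5 encode nuclear ones. Dusp6 (ENSMUSG00000019960, chromosome 10 from 99263231 to 99267489, plus strand), with the highest mean level per kilobase of the 10 genes in the UB controls, had 1795, 2398, 2557 and 2376 normalized counts in the controls and 863, 777, 445 and 936 in the dko. The highest dko library was below the lowest control (2282 ± 334 against 755 ± 217, SD, n = 4 each; log2FC -1.59, SE 0.24, adjusted p = 0.00752 by edgeR). Dusp4 (ENSMUSG00000031530, chromosome 8 from 34807297 to 34819894, plus strand) had 350.3, 331, 329.7 and 344 in the controls, the tightest control values of the 10 genes in the UB, and 116, 63.9, 101 and 75.0 in the dko. This was the largest fall among the 10 (339 ± 10.2 against 88.9 ± 23.8; log2FC -1.92, SE 0.25, adjusted p = 0.00373 by edgeR). Dusp4 and Dusp6 passed in each of the 8 fits that left out 1 library and under each of 12 other settings, offsets and the fit without UB dko libraries 1 and 3 included.

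Dusp5 (ENSMUSG00000034765, chromosome 19 from 53529109 to 53542431, plus strand) had 181, 254, 271 and 259 normalized counts in the UB controls and 78.8, 62.4, 128 and 123 in the UB dko, again without overlap. Its fall (241 ± 40.9 against 98.0 ± 32.3, SD, n = 4 each; log2FC -1.30, SE 0.30, adjusted p = 0.0366 by edgeR) was the least secure of the 5, since leaving out 1 library at a time kept the call in 2 of 8 fits, those without UB dko library 1 or 3, and had an adjusted p of 0.0885 with offsets for GC content and length. Dusp7 (ENSMUSG00000053716, chromosome 9 from 106368632 to 106375724, plus strand) was at 298, 321, 377 and 232 in the controls and at 158, 282, 261 and 204 in the dko (307 ± 59.9 against 226 ± 56.1; log2FC -0.44, SE 0.25, adjusted p = 0.338 by edgeR). The receptor-like inhibitor Il17rd (ENSMUSG00000040717, chromosome 14 from 27038941 to 27107286, plus strand) was at 321, 273, 200.02 and 304 in the controls and at 124, 253, 259 and 171 in the dko (275 ± 53.5 against 202 ± 65.3; log2FC -0.45, SE 0.28, adjusted p = 0.392 by edgeR). For both genes, libraries 2 and 3 of the dko were inside the span of the controls and libraries 1 and 4 beneath it.

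The promoters of the 2 Dusp genes follow from the same table. Dusp5 is shown because, among the inhibitors searched, it was the one that held CArG boxes, the motif of serum response factor. Dusp6 is shown because it had the highest mean level per kilobase in the UB controls and held none of the 4 motifs. In Dusp5, 2 CArG boxes lay end to end, starting 82 and 72 bases before the RefSeq start. They are in capitals in chr19:53528895-53529108, plus strand of GRCm38.p6, which ends at the GENCODE start of the gene. Dusp6 is shown at chr10:99262981-99263230, plus strand of GRCm38.p6.
Dusp5: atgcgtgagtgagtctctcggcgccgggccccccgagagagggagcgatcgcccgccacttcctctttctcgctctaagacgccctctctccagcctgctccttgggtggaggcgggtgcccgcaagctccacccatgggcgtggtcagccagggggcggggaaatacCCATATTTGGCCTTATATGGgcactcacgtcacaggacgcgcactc
Dusp6: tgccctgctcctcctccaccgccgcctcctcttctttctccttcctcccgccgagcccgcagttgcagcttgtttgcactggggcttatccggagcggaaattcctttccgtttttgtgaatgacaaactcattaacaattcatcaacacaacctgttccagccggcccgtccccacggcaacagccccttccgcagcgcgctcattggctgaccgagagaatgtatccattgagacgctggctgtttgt

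Without the libraries labelled UB dko 1 and 3, 7 of the 10 genes were called lower (Spry1, Spry2, Spry4, Spred2, Dusp4, Dusp5 and Dusp6) and 0 higher, with 19.9% of all genes tested then called lower. With offsets for GC and length 6 were called lower, Spry2, Spry4 and Spred1 joining Spred2, Dusp4 and Dusp6, with 4.04% of all genes called lower. Markers of position within the UB moved with the same contrast. The summed level of 9 tip markers was 9268 to 9727 normalized counts in the controls and 2559 to 4583 in the UB dko, with 6 of the 9 lower. That of 8 stalk markers was 1857 to 1994 and 4351 to 7790, with 3 of 7 tested higher. With all libraries, 1.24% of all genes were called lower and 2.7% higher. None of the tip markers was at 0. Stromal markers summed to 125 to 397 in the controls and 135 to 660.4 in the UB dko, and the defining gene Foxd1 was at 1.05 to 8.75 and 9.12 to 60.5. Of 5 stromal markers tested in the UB 0 were called lower and 0 higher, and 1 had a log2FC below 0, Col1a2 (-0.41). The part of tip, stalk and stromal markers in the lower counts of the inhibitors was not tested.

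In the MM, where the same question was asked, the inhibitors did not move together. Spry1, Spry2 and Spred1 rose to between 198 and 223% of their control means, Dusp5 fell, and the other 6 genes did not pass the test. The 3 genes that rose compare with 25% of 12431 tested genes called higher, and the 1 that fell with 27.9% called lower, so that the count higher is near the share among all genes and the count lower is under it. The 3 genes higher without overlap compare with 27.6% of all genes, and the 1 lower without overlap, Dusp4, with 32.8%. The median log2FC of the 10 genes was -0.29, against -0.05 for all genes, and 7 of the 10 values were below 0.

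Spry1 had 482, 494 and 385 normalized counts in the MM controls and 886, 940.0 and 871 in the MM dko. Each dko library was above each control by a wide margin (454 ± 59.7 against 899 ± 36.5, SD, n = 3 each; log2FC 0.98, SE 0.16, adjusted p = 2.28e-04 by edgeR). The Spry1 transcript is 56.7% GC, and the median log2FC of all genes in its GC bin was -1.73, so that Spry1 went against the genes of like GC content. With offsets for GC content and length its log2FC was 2.47 (SE 0.17, adjusted p = 1.69e-07). Spry2 was at 157, 173 and 107 in the controls and 256, 251 and 363 in the dko, with all dko libraries above all controls (146 ± 34.2 against 290.1 ± 63.4; log2FC 1.00, SE 0.25, adjusted p = 0.00390 by edgeR). Both passed in each of the 6 fits that left out 1 library.

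Spred1 was at 861, 697 and 634 normalized counts in the MM controls and at 1761, 1403 and 1731 in the MM dko, again without overlap (731 ± 117 against 1632 ± 199, SD, n = 3 each; log2FC 1.16, SE 0.17, adjusted p = 8.35e-05 by edgeR). Unlike that of Spry1, its rise was no larger than that of genes of like GC content. The transcript is 41.2% GC, the bin had a median log2FC of 1.20 with 71.4% of its genes called higher, and with offsets the log2FC of Spred1 was 0.16 (SE 0.13, adjusted p = 0.411).

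Of the phosphatases in the MM, Dusp5 had 322, 359 and 169 normalized counts in the controls and 141, 169.6 and 148 in the dko, so that control 3 lay among the dko libraries (283 ± 101 against 153 ± 14.9, SD, n = 3 each; log2FC -0.90, SE 0.28, adjusted p = 0.0140 by edgeR). It kept the call in 2 of 6 fits that left out 1 library, without control 3 or dko 2, and its sign turned with offsets for GC content and length (log2FC 0.63, SE 0.26, adjusted p = 0.104). Dusp6 was at 455, 461 and 454 in the controls and 420.1, 403 and 506 in the dko, the dko libraries spreading to both sides of the controls (457 ± 3.47 against 443 ± 55.2; log2FC -0.04, SE 0.17, adjusted p = 0.860 by edgeR). The controls were closer to each other than for any other of the 10 genes. Dusp4 was at 174, 162 and 119.6 in the controls and 117, 91.9 and 98.45 in the dko, lower without overlap but by little (log2FC -0.56, SE 0.27, adjusted p = 0.0907 by edgeR), and Dusp7 overlapped (log2FC -0.38, SE 0.23, adjusted p = 0.170 by edgeR). With offsets, Dusp4 (log2FC 0.84, SE 0.28, adjusted p = 0.0425) and Dusp7 (1.19, SE 0.22, adjusted p = 0.00153) were called higher.

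The remaining genes overlapped between groups in the MM. Il17rd was at 592, 565 and 656 normalized counts in the controls and 375, 573 and 411 in the dko, with dko library 2, the shallowest, among the controls (log2FC -0.43, SE 0.19, adjusted p = 0.0664 by edgeR). Spry4 was at 128, 158 and 80.0 in the controls and 94.1, 91.9 and 110.3 in the dko (log2FC -0.30, SE 0.31, adjusted p = 0.433 by edgeR). Spred2 was at 273, 354 and 388 in the controls and 221, 360.5 and 261 in the dko (log2FC -0.29, SE 0.22, adjusted p = 0.294 by edgeR). In the MM the 8 early nephron markers summed to 2392 to 3429 normalized counts in the controls and 1722 to 1976 in the dko, and the 10 stromal markers to 517 to 908 and 777 to 1156. Of 8 stromal markers tested 1 rose and 1 fell: Foxd1 stood at 163 to 200.3 in the controls and 411 to 626 in the dko, and Pdgfrb at 29.9 to 59.5 and 0 to 13.6. Six2 stood at 2192 to 3389 in the controls and 738 to 2643 in the dko. Of 11 nephron progenitor markers tested 3 fell and 2 rose, against 27.9% of all genes called lower and 25% higher. Sall1 (log2FC -0.70) and Osr1 (-1.07) were among those that fell, and Itga8 (0.92) and Eya1 (0.77) rose. The part of these markers, of depth and of mitochondrial ribosomal RNA in the MM values was not tested.

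**Figure D2:**
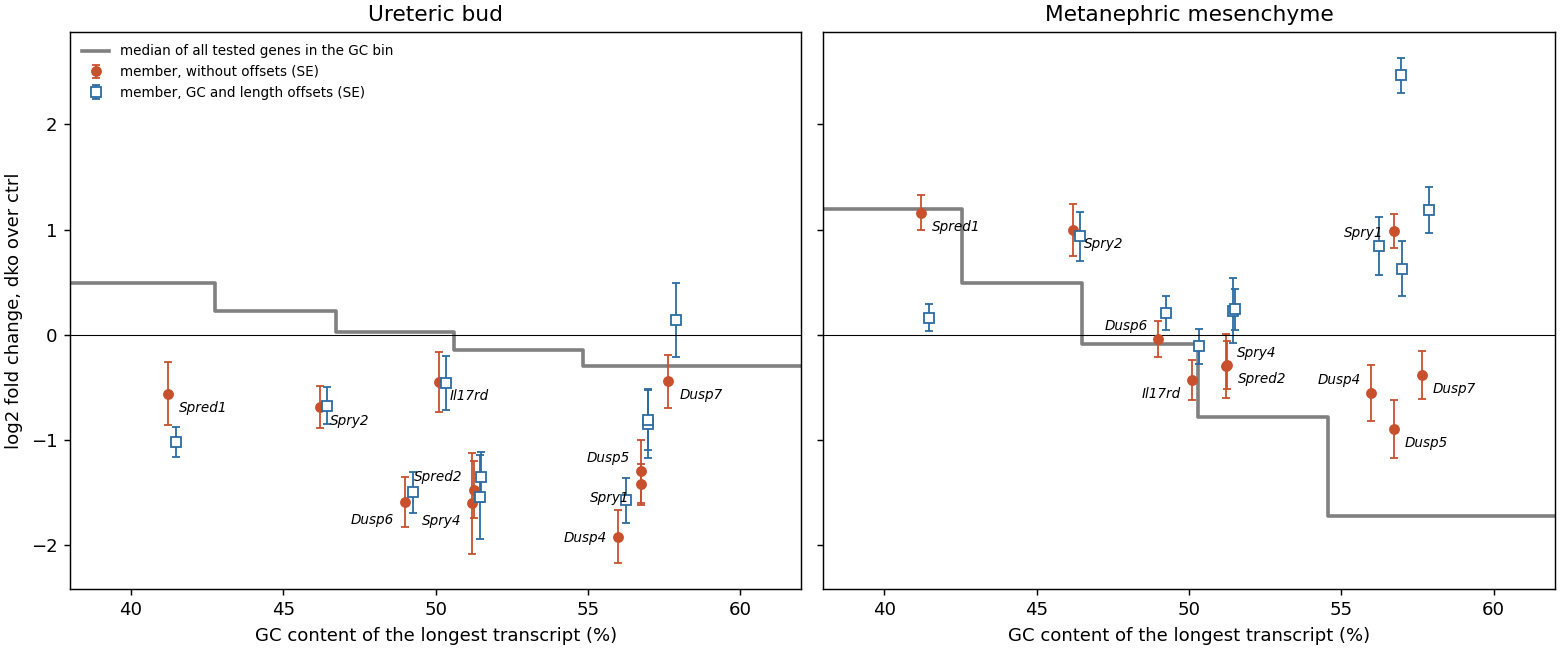
log2 fold change of dko over ctrl against the GC content of the longest transcript (%), for the UB at left and the MM at right. Circles are the 10 genes without offsets, squares, drawn slightly to the right, the same genes with offsets for GC content and length, bars the SE, and the grey steps the median of all tested genes in each of 5 GC bins. In the MM Spry1 lies at 0.98 where the bin median is -1.73, while Spred1 lies at 1.16 where it is 1.20.

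The effect of dko was then compared between the tissues in 1 fit over 14 libraries, in which tissue, age, Cre driver and control genotype cannot be told apart. The dko effect was more negative in the UB for Spry1, Spry2, Spred1, Dusp4 and Dusp6. These 5 compare with 1.81% of 15225 genes with a negative UB minus MM difference called, and 0 of the 10 had a positive difference called, against 4.33%. By edgeR at an unadjusted p under 0.05, 7 differences were negative and 0 positive, and DESeq2 called 6 negative and 0 positive. The shares of all genes for these counts were not taken, so the counts alone do not set the 10 genes apart. Spry1 differed most, falling in the UB and rising in the MM (difference -2.44 on the log2 scale, SE 0.27, adjusted p = 4.43e-04). For Spry2 the difference was -1.72 (SE 0.33, adjusted p = 0.0148), for Spred1 -1.75 (SE 0.39, adjusted p = 0.0220), for Dusp6 -1.58 (SE 0.32, adjusted p = 0.0162) and for Dusp4 -1.39 (SE 0.37, adjusted p = 0.0382), all by edgeR. Spry1 was called in each of 14 fits that left out 1 library, while Spry2 and Dusp6 lost the call without MM dko library 3 (adjusted p of 0.0594 and 0.0620). Spred1 kept it in 9 and Dusp4 in 5 of these fits. The difference was not called for Spred2 (-1.22, SE 0.38, adjusted p = 0.0609), Spry4 (-1.33, SE 0.63, adjusted p = 0.187), Dusp5 (-0.43, SE 0.43, adjusted p = 0.548), Dusp7 (-0.09, SE 0.36, adjusted p = 0.903) and Il17rd (-0.05, SE 0.36, adjusted p = 0.956). Without the libraries labelled UB dko 1 and 3, 7 genes were called, Spry4 and Spred2 in addition to the 5 called with all libraries. The share of all genes was not taken for this joint fit. In the UB alone, the fit without those libraries called 19.9% of all genes lower and 20% higher.

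**Figure D3:**
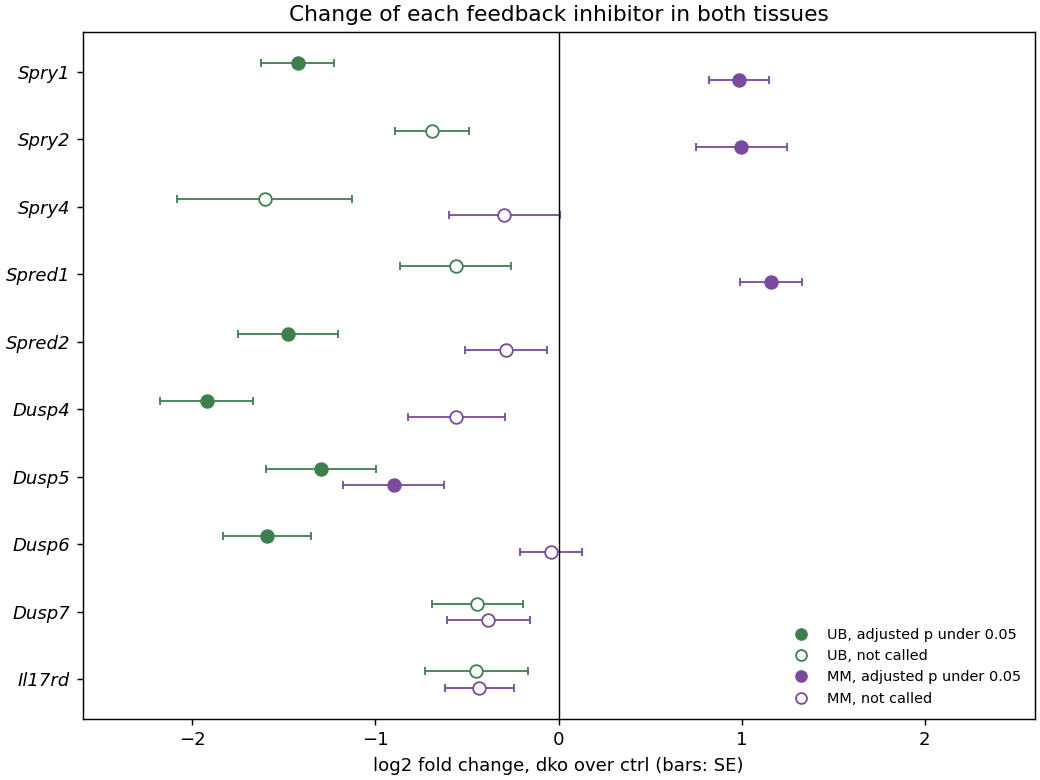
log2 fold change of dko over ctrl (horizontal axis, bars SE) of each feedback inhibitor in the UB (green) and the MM (purple), filled where the adjusted p was under 0.05. Spry1, Spry2 and Spred1 lie on opposite sides of 0 in the tissues, and Dusp7 and Il17rd lie close together.

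Control levels were compared per kilobase of exon, at normalized counts of the joint fit. In the UB controls Dusp6 (633 ± 93.6 per kilobase, SD, n = 4) and Spry1 (441 ± 93.6) led, with overlapping libraries, and every library of Spry1 was above the next gene. Spry2 (169 ± 24.22), Spred1 (163 ± 18.3), Spred2 (134 ± 29.3) and Dusp4 (107 ± 3.12) followed, each overlapping its neighbour. Dusp5 (84.7 ± 14.5) and Dusp7 (79.4 ± 15.5) could not be ordered, and Spry4 (35.5 ± 8.60) and Il17rd (21.7 ± 4.21) were lowest, each below every library of the gene before it. In the MM controls the order was flatter: Spry1 (196 ± 24.16, n = 3), Dusp6 (183 ± 1.42), Dusp5 (143 ± 50.1), Spred1 (135 ± 20.8), Dusp7 (107 ± 20.6), Spred2 (91.9 ± 16.7), Spry2 (87.5 ± 19.9), Dusp4 (69.5 ± 12.6) and Il17rd (69.0 ± 5.96) each overlapped the next, and Spry4 (32.1 ± 10.1) stood below the rest.

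Between the controls of the tissues, Dusp6 (log2 difference UB minus MM 1.79, SE 0.23, adjusted p = 9.26e-06), Spry1 (1.17, SE 0.19, adjusted p = 1.51e-04) and Spry2 (0.95, SE 0.23, adjusted p = 0.00568) were higher in the UB and Il17rd was lower (-1.67, SE 0.25, adjusted p = 4.94e-05 by edgeR). Of 15225 genes, 10.7% were called higher in the UB and 8.37% lower. The 4 genes kept these calls in each of the 14 fits that left out 1 library. In the dko the order changed with the effects above. Dusp6 and Spry1 still led in the UB dko, at 208 ± 60.0 and 164 ± 18.4 per kilobase, while in the MM dko Spry1 (393 ± 10.9) stood above Spred1 (306 ± 41.5) in every library, and Spred1 above Dusp6 (179.7 ± 23.5).

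**Figure D4:**
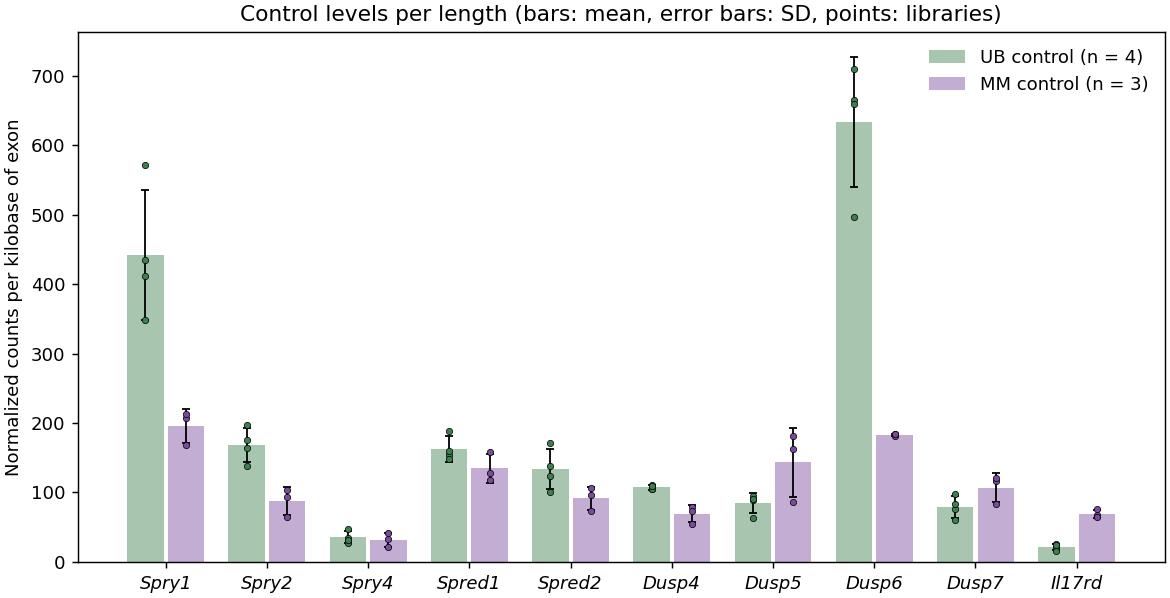
Normalized counts per kilobase of exon of the 10 genes in the UB controls (green, n = 4) and the MM controls (purple, n = 3), with bars for means, error bars for the SD and points for libraries. Dusp6 and Spry1 stand above the other genes in the UB, and Il17rd is the gene called higher in the MM.

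The other genes of the families and of the pathway were read from lists. Of 3 tested further family members in the UB, 1 was called lower, against 1.24% of all genes. This was Spred3 (log2FC -1.31, SE 0.26, adjusted p = 0.0221 by edgeR). In the MM, the ERK phosphatase genes Dusp2 (log2FC -2.71, SE 0.67, adjusted p = 0.00410) and Dusp9 (-1.21, SE 0.43, adjusted p = 0.0287) fell, at mean levels of 37.6 and 114 normalized counts in the controls. They were 2 of 3 tested there, against 27.9% of all genes called lower. Of the Dusp genes that act on JNK and p38 or on other substrates, 0 of 12 were called in the UB at a median log2FC of 0.39, with Dusp22 (0.66, adjusted p = 0.127) and Dusp14 (-0.92, adjusted p = 0.316) among them. By edgeR at an unadjusted p under 0.05, 0 were lower and 2 higher, against 7.91 and 13% of all genes. DESeq2 called 0 lower and 1 higher, against 3.92 and 6.5%. In the MM 3 of 10 rose and 0 fell, against 25% of all genes called higher and 27.9% lower. Dusp11, an RNA phosphatase (0.61, adjusted p = 0.00337), and Dusp16, a JNK phosphatase (0.81, adjusted p = 0.0152), were among the 3.

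A list of regulators outside these families, most of them inhibitors, gave 0 calls of 22 in the UB at a median log2FC of -0.02. Sh2b3, an adaptor that inhibits receptor signalling (-1.68, adjusted p = 0.0846), and Flrt3, which is known to promote FGF signalling (1.13, adjusted p = 0.0763), came nearest. By edgeR at an unadjusted p under 0.05, 3 were lower and 4 higher, against 7.91 and 13% of all genes. DESeq2 called 1 lower and 1 higher, against 3.92 and 6.5%. In the MM 7 of 22 fell and 5 rose, near the 27.9% of all genes called lower and 25% called higher. Pebp1, the RAF kinase inhibitor protein, fell (log2FC -3.03, SE 0.32, adjusted p = 8.53e-06), and Rasa1, a RAS GTPase-activating protein, rose (1.46, SE 0.17, adjusted p = 1.46e-05). Of 24 transcription factors and targets induced by ERK, 7 fell and 0 rose in the UB, against 1.24% of all genes called lower and 2.7% higher. Their median log2FC was -0.94, and Etv5 (-2.40, SE 0.26, adjusted p = 0.00211) was among those that fell. In the MM 7 of 23 fell, with Etv4 at -2.52 (SE 0.41, adjusted p = 1.98e-04), and 6 rose, with Klf6 at 2.71 (SE 0.27, adjusted p = 5.68e-06), at a median of -0.12. Both counts are near the shares of all genes in the MM given above. Of the receptors and kinases upstream, Ret (-1.70, SE 0.21, adjusted p = 0.00306) and its coreceptor Gfra1 (-1.15, SE 0.19, adjusted p = 0.0118) fell in the UB. There Fgfr2 (0.90, SE 0.17, adjusted p = 0.0168) and Egfr (1.77, SE 0.36, adjusted p = 0.0227) rose. These were 4 calls of 28, against 1.24% of all genes called lower and 2.7% higher. In the MM 10 of 27 fell and 11 rose, against 27.9% of all genes called lower and 25% higher. Mapk3 (ERK1) at -2.75 (SE 0.33) and Braf at 1.68 (SE 0.19) were among them, all by edgeR. The MM counts of these lists stand beside the trend with GC content given above, whose part in them was not tested.

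Genes of similar pattern were found by the root mean square (RMS) difference of log2 values relative to the control mean, among genes of at least 100 normalized counts. Over the 8 UB libraries and 7976 genes, Prim2, a DNA primase subunit, lay nearest to the median of the 10 inhibitors (RMS difference 0.17), followed by Gfra1 (0.19) and Lsg1 (0.19). Over 14 libraries of both tissues and 6337 genes, Sema6a (0.32), Npm3 (0.33) and Myc (0.37) lay nearest to Spry1. Dna2 (0.25) lay nearest to Dusp6, and Spred2 (0.28), itself one of the 10 inhibitors, came next.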

How the data were processed

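RNA-Seq libraries were NuGen Ovation Solo single-end reads of cells sorted by FACS. Trimming by Trimmomatic, alignment to GRCm38 by STAR and counting by featureCounts were done by the authors. The submitters' notes also name HISAT2, HTSeq and DESeq2 without roles. The deposited files hold unnormalized counts, 1 whole number for each gene and library. It is not given in the sources used here whether counting used strand.

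Genes kept by filterByExpr (count of at least 10, total of at least 15) were scaled by TMM and tested within a tissue by the robust quasi-likelihood test of edgeR 4.0.16 (R 4.3.3), with Benjamini-Hochberg adjustment over all genes tested and a call at an adjusted p under 0.05. A joint fit of genes in both tables (52110) gave the tissue-by-genotype interaction. TMM counts were rescaled to the mean effective library size for printing as normalized counts, and the SE is the log2 fold change over the root of F. The self-tests ran on simulated data. Alternatives were DESeq2 1.42.0, voom of limma 3.58.1, other scalings and filters, a block for replicate number, GC and length offsets (splines, 4 degrees of freedom), and left-out libraries. The fit without UB dko libraries 1 and 3 and the left-out libraries for control levels were chosen after seeing the data.

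The 10 genes and the lists were chosen with earlier results of these data known. From each list the 2 genes of smallest adjusted p in each direction could be named. Figures were drawn with matplotlib 3.10.9 and pandas 2.3.3 under Python 3.11.15. RefSeq promoters of GRCm38.p6 were matched by symbol and searched for 8 of the 10 genes, and not for Spry4 and Dusp4. Counting error alone limits genes of few counts, and the lowest count of any of the 10 genes was 18 in the UB and 26 in the MM.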

Additional observations from a re-analysis of the deposited data

Results flagged for a closer look

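The effect of dko differed between the UB and the MM, by the interaction test in the joint edgeR fit, for 5 of the 10 inhibitors. The UB minus MM difference on the log2 scale was -2.44 for Spry1, -1.72 for Spry2, -1.75 for Spred1, -1.39 for Dusp4 and -1.58 for Dusp6. Of 20 UB groups of 4 libraries tested for a library far from the others, 0 held one.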

How the results depend on the processing

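In the UB, 5 inhibitors were called lower and 0 higher, and no alternative gave one called higher. The count lower was 3 with the replicate block (Spry1, Dusp4 and Dusp6, with 0.0968% of all genes). It was 3 to 6 when 1 library was left out, fits that called 0.0506 to 4.09% of all genes lower. Same-numbered libraries did not deviate together (correlations -0.28 to 0.12 in the UB, -0.06 to -0.02 in the MM). UB libraries of different numbers reached 0.36, so these few correlations show no pairing by number but cannot exclude one. The count lower in the UB was 7 with DESeq2, with voom, without dko libraries 2 and 4, and without 1 and 3. Those fits called 3.92, 16.5, 3.89 and 19.9% of all genes lower. In the MM the 1 called lower became 5 with library size only, 2 with no filter, 4 with voom and 0 with GC and length offsets (37.8, 14.9, 32.1 and 11% of all genes), 0 with offsets and the replicate block (9.93%), and 0 to 2 when 1 library was left out. The 3 called higher were 2 to 4 under all alternatives run, but the genes changed, and 10.1 to 30.1% of all genes were called higher. With library size only, Spry2 lost the call. With offsets the 4 were Spry1, Spry2, Dusp4 and Dusp7, without Spred1, and with offsets and the replicate block the 3 were Spry1, Spry2 and Dusp7. Scaling by library size only put the all-gene median log2FC at -0.28 in the UB (TMM 0.06) and at -0.44 in the MM (TMM -0.05). The 5 interaction calls became 2 with library size only and 2 with the replicate block, and 1 to 7 when 1 library was left out. The 4 calls between controls were 7 without UB dko libraries 1 and 3. For these alternative fits over both tissues the share of all genes was not taken. The causes were not tested.

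Signs turned in the following fits. In the UB, Dusp7 was at 0.14 with offsets. In the MM, Dusp6 was at 0.025 with RLE, 0.026 with DESeq2, 0.028 with voom, 0.21 with offsets and 0.20 with offsets and block, and -0.15 to 0.034 when 1 library was left out. With offsets, Spry4 was at 0.23, Spred2 at 0.24, Dusp4 at 0.84, Dusp5 at 0.63 and Dusp7 at 1.19, and with offsets and the replicate block at 0.29, 0.25, 0.83, 0.69 and 1.20. The UB minus MM difference ran from -0.19 to 0.14 for Il17rd and from -0.21 to 0.067 for Dusp7 when 1 library was left out, and was 0.035 and 0.019 without UB dko libraries 1 and 3. The control difference of Spry4 ran from -0.079 to 0.37. The MM dko libraries, with 1443582 to 3438297 counts, limit the precision of low genes there.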
